A study of Mus musculus with 31 samples.

Results

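Mice injected with oleic acid were compared late, at 18 to 24 h, against early, at 3 to 4 h, by RNA levels in the brain. The late mice were the 5 arrays titled for oleic acid at 18 h (2 mice) and 24 h (3 mice). The early mice were the 6 arrays titled for oleic acid at 3 h (3 mice) and 4 h (3 mice). These 11 arrays were chosen by title from the 31 of the series, of which 17 carried oleic acid and 14 physiological serum. Every mouse was a female of the C57BL/6 strain, aged 6 weeks, with no allele or genotype change named. All of them, the serum mice included, were anaesthetised with xylazine and ketamine and injected through the tail vein with 200 µl of fluid. Oleic acid was given at 1.2 µl per g of body weight, an agent that injures the lung and is used to model acute lung injury. The serum mice set beside them numbered 4 at 18 to 24 h (2 and 2) and 4 at 3 to 4 h (2 and 2). Each mouse gave 1 Agilent single-colour array of total brain RNA, and the labels name no region, sorted cell or pooling. The stated interest of the series is brain inflammation during acute lung injury.

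Defining markers of brain cells were present in the late arrays: 20 of 20 neuron, 16 of 16 astrocyte, 20 of 20 myelin and 24 of 24 microglia genes were well above background on all 5, as on all 6 early arrays. In whole tissue, fewer cells of a type and less RNA per cell cannot be told apart. The 75th percentile of processed intensity was 495.4 to 753.6 on late and 460.1 to 767.3 on early arrays, and 61.8 to 65.2% of late and 59.9 to 76.3% of early spots were well above background. The late oleic acid arrays all lay on 1 slide, numbered 5 here, and the early ones on slides 3 (2 arrays) and 4 (4 arrays). No slide held both, so slide and time cannot be told apart in oleic acid mice. Serum arrays crossed slides: slide 4 held 2 late and 2 early, slide 5 held 1 late, slide 2 held 1 late and slide 3 held 2 early. Tissue content also varied: the pituitary hormone gene Prl was at 7.66 and 7.91 (log2) in 2 of the 5 late mice and between -7.69 and -2.84 in the other 9. The early mouse at 4 h, replicate 3, gave no cerebellar Gabra6 signal above background (-6.12). Gabra6 was at -0.84 and -1.39 in 3 h replicates 1 and 3, and at 0.68 to 2.03 in the remaining early mice. In late mice it was at 1.00 to 2.32. The hypothalamic gene Hcrt was at -3.01 in late 24 h replicate 2 and -0.70 in early 4 h replicate 3, against 2.49 to 3.21 in the others.

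Glucocorticoids, released by the adrenal in stress and in a daily rhythm, act through a receptor that binds DNA and raises a set of genes shared by many tissues. The circadian clock is a loop in which CLOCK and BMAL1 bind E-boxes and drive Per, Cry and Nr1d genes, whose products repress the loop. Immediate early genes are transcribed within minutes of a stimulus and decay quickly.

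Among the genes named for the size of their change, the falls of late against early oleic acid mice were larger than the rises. The transcription factor gene Maff, an acute stress gene, was 5.53-fold lower late, the clock repressor gene Ciart 3.96-fold lower and the adenosine deaminase gene Ada 4.08-fold lower. Some of the genes that glucocorticoids raise, of the clock output genes, of the cold-inducible RNA-binding protein genes and of the metallothioneins were among those that fell. Rises included the proto-oncogene Mycn, 1.91-fold, the RNA phosphatase gene Dusp11, 2.01-fold, and the chaperone disulfide isomerase gene Pdia4, 2.01-fold higher. Of the genes called lower, 95.3% were also below 0 in serum mice, and no gene passed a test for a difference between treatments.

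In all, 1334 of 25173 genes (5.3%) passed limma at a Benjamini-Hochberg adjusted p under 0.05. Of these 368 (1.46%) were higher and 966 (3.84%) were lower late, and 5333 had an unadjusted p under 0.05. The 5 late values lay wholly above or below the 6 early ones in 1083 genes (4.3%), with 328 (1.3%) above and 755 (3%) below. The median difference over all genes was -0.04 (log2). By quantile normalization 489 genes were higher and 772 lower. With slide as a random block 22 genes were higher and 134 lower, all of them among those called without it, and the 1334 kept their sign. With slide as a fixed block, which compares the oleic acid times through arrays of other groups that share slides, 15 were higher and 17 lower. There slide 5 was tied to the other slides by 1 array alone, serum 24 h replicate 1. Its group mate, serum 24 h replicate 2, lay on slide 2, whose scan date differed from that of the other slides. Single arrays moved the counts: 100 were higher and 371 lower without 18 h replicate 1, 114 and 487 without 18 h replicate 2, 169 and 579 without 4 h replicate 3. Without 24 h replicate 2 there were 243 higher, and without 3 h replicate 3 there were 610 lower. Of 91 named genes that passed, 31 passed with the random block and 2 kept their call with the fixed one.

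**Figure D1:**
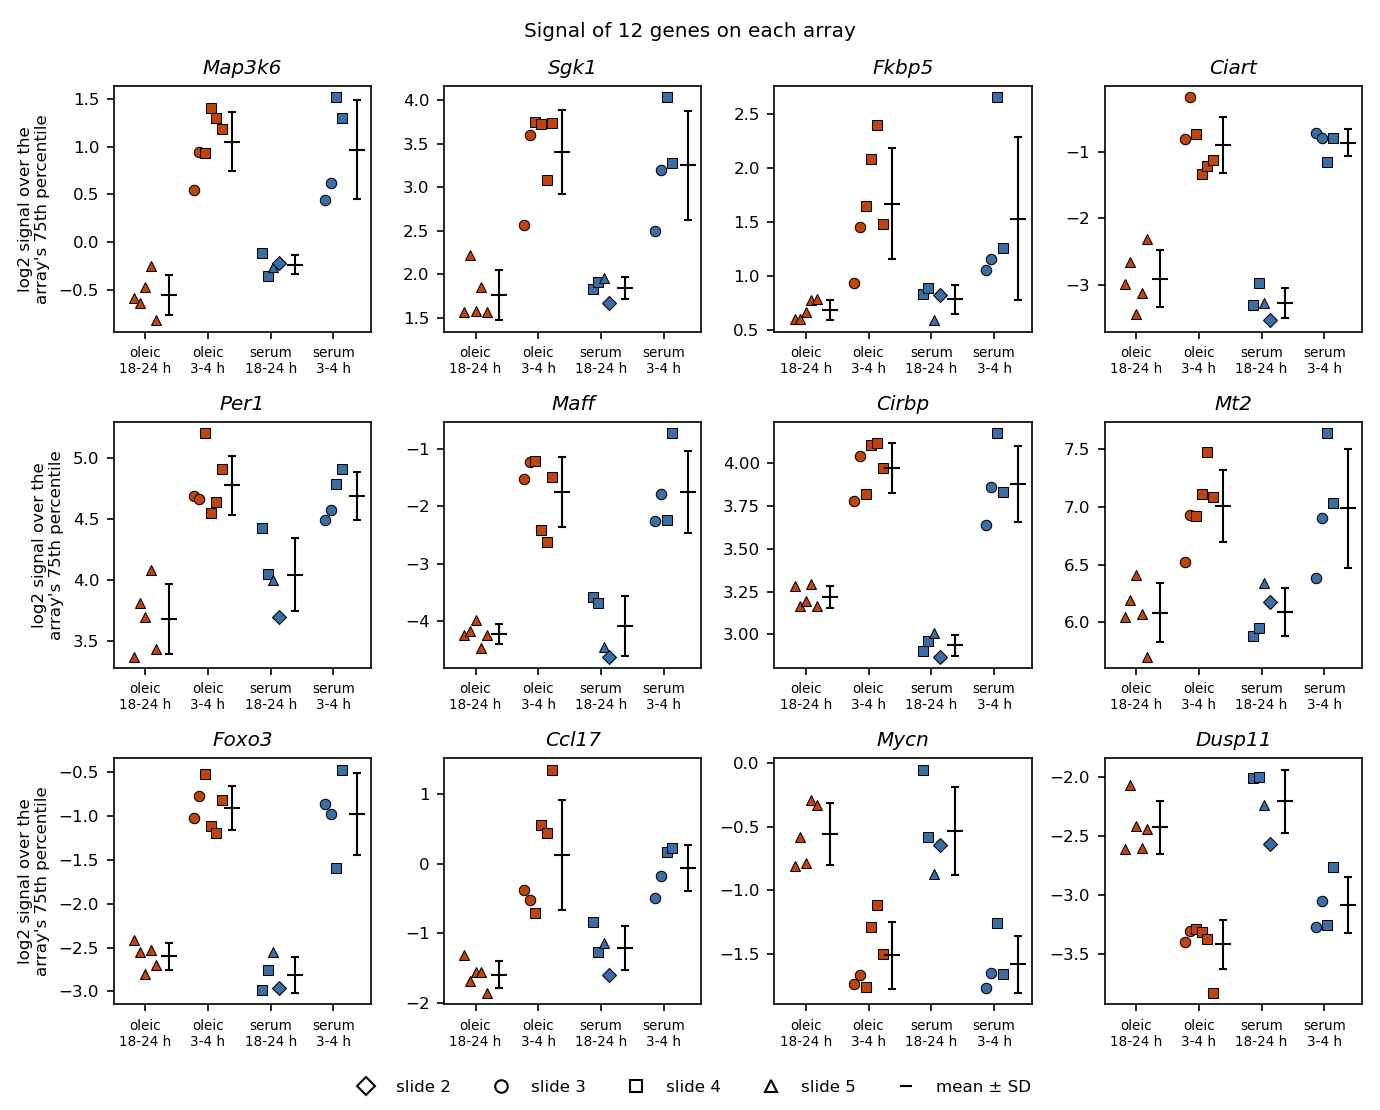
Log2 signal over the array's 75th percentile (vertical axis) of 12 genes on each array, in late and early oleic acid mice and in late and early serum mice (left to right); symbols give the slide and bars the mean ± SD. The 5 late and 6 early oleic acid values do not overlap in any of the 12 genes, with Mycn and Dusp11 higher late and the other 10 lower.

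The glucocorticoid response genes were lower late. Of 30 measured members 19 fell and none rose, and all 30 differences were below 0, with a median of -0.56 against -0.04 for all genes. The background share of genes called lower is 3.84%. This list, like the others, was chosen with earlier results of these data known, so its counts describe the members and test nothing. The kinase gene Map3k6 (probe at chr4:132808672-132808731, plus strand, mm9) had the smallest adjusted p among the named genes. Its log2 signal was -0.59, -0.64, -0.48, -0.26 and -0.82 in late mice, against 0.54 to 1.41 (median 1.07) in early mice. The groups did not overlap, the difference was -1.62 ± 0.11 (SE; limma adjusted p = 1.41e-08) and its second probe gave -1.37. Sgk1, a kinase that regulates ion channels, was at 1.56, 2.22, 1.58, 1.85 and 1.57 in late mice, against 2.57 to 3.75 (median 3.66) in early mice. This is a difference of -1.63 ± 0.25 (adjusted p = 0.000461), with no overlap. Fkbp5, a co-chaperone that dampens the receptor, was at 0.60, 0.60, 0.67, 0.78 and 0.79 in late mice, against 0.93 to 2.40 (median 1.57) in early mice, a difference of -0.99 ± 0.19. The hypoxia factor gene Hif3a fell by 1.77 ± 0.25, Angptl4, an inhibitor of lipoprotein lipase, by 1.52 ± 0.22, and Klf9, a transcription factor gene, by 0.60 ± 0.09. The cell cycle inhibitor gene Cdkn1a was at -0.98 ± 0.20 and the zinc finger factor gene Zbtb16 at -0.93 ± 0.22, both passing. The dimmer Cdkn1a probe, above background on 0 of 5 late arrays, gave -0.90, and the mean of both did not pass (-0.94, adjusted p = 0.25). With slide as a random block neither gene passed (adjusted p of 0.138 and 0.270). The lipid droplet gene Plin4 passed with overlapping groups (-1.75 ± 0.51, adjusted p = 0.0462). Plin4, Angptl4 and Pdk4 also belong to the PPAR and fatty acid oxidation list. Of its 35 genes 5 fell and none rose, with 29 below 0 (median -0.12), against 3.84% of all genes called lower. In the glucocorticoid list, Tsc22d3, a classical target of the glucocorticoid receptor, differed by -0.58 ± 0.18 and did not pass (adjusted p = 0.0576).

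The number of passing members depended on the samples and the block. It was 8 with slide as a random block, 11 without the 2 late mice with high Prl, and 7 with the 3 h mice alone as the early group. Of all 25173 genes, 134, 366 and 346 were lower in these settings. Map3k6, Hif3a, Sgk1, Angptl4 and Klf9 passed with the random block and Fkbp5 did not (adjusted p = 0.149). The promoter of Sgk1 is shown because a stretch of it holds the 15-base palindrome by which the glucocorticoid receptor is known to bind DNA. The letters AGAACA and TGTTCT, 3 bases apart, were searched on both strands in the 250 bases before each RefSeq start, in 32851 windows of 27025 genes (GRCm38.p6). They were found in 3 windows (0.00913%) and, in the list, in 1 of 23 genes with a promoter, Sgk1, at 1 of its starts (chr10:21993640-21993889, plus strand). The match, in capitals, overlaps a heat shock element match.
Sgk1: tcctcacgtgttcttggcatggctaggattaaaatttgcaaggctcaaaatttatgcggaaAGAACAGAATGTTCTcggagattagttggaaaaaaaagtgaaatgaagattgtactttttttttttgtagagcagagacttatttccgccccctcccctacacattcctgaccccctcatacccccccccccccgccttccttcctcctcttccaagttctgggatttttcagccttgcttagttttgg

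**Figure D2:**
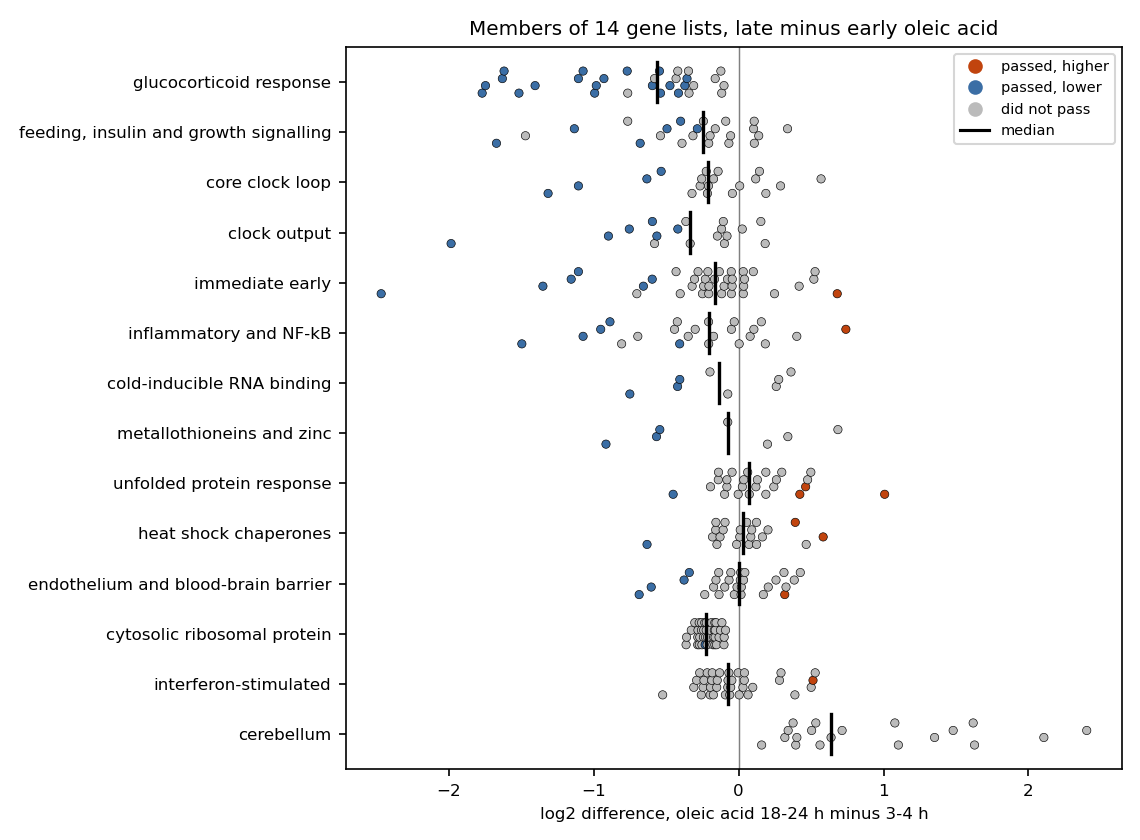
Log2 difference of late minus early oleic acid mice (horizontal axis) for each measured member of 14 gene lists (rows), coloured by whether it passed limma's test; the black bar is the list's median. All 30 glucocorticoid response members lie left of 0, and all 19 cerebellum members right of it with none passing.

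Clock genes fell in part. Of 19 core loop genes 4 fell and none rose (median -0.21), and of 17 output genes 6 fell and none rose (median -0.33). Of all genes 3.84% were called lower and 1.46% higher. Ciart, a repressor of the CLOCK and BMAL1 pair (probe at chr3:95682433-95682492, minus strand, mm9), was at -2.99, -2.65, -3.43, -3.12 and -2.32 in late mice, against -1.33 to -0.19 (median -0.97) in early mice. The difference was -1.98 ± 0.18 (adjusted p = 1.78e-06). Nr1d1, the nuclear receptor that represses Bmal1, was at 0.52, 0.54, 0.63, 0.59 and 1.16 in late mice, against 1.58 to 2.33 (median 1.99) in early mice, a difference of -1.32 ± 0.30. Per1, a repressor of the loop that glucocorticoids also raise, was at 3.37, 3.81, 3.70, 4.08 and 3.44 in late mice, against 4.54 to 5.20 (median 4.67) in early mice, a difference of -1.11 ± 0.16. All 3 genes were separated between the groups.

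The output factor gene Dbp fell by 0.90 ± 0.15 on its brightest probe, with -0.83 on its other probe. Its partner Tef fell by 0.42 ± 0.11, Pdk4, which restrains pyruvate oxidation, by 0.75 ± 0.12, and the repressor genes Bhlhe40 and Bhlhe41 by 0.53 ± 0.15 and 0.63 ± 0.18. The other Bhlhe41 probe gave -0.29, and the mean of both did not pass (-0.46, adjusted p = 0.0578). The other loop genes did not pass: the differences were 0.29 ± 0.10 for Arntl, which encodes BMAL1 (adjusted p = 0.111), -0.22 ± 0.17 for Per2, -0.32 ± 0.18 for Per3, -0.26 ± 0.14 for Nr1d2 and 0.01 ± 0.11 for Clock. Under the random slide block 1 core loop gene and 4 output genes passed, Ciart, Per1 and Dbp among them and Nr1d1 not (adjusted p = 0.169). With this block 134 of all 25173 genes were lower and 22 higher.

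The promoters of Ciart and Per1 are shown for their E-boxes. The letters CACGTG, searched on both strands in the same windows, were found in 6.02% of all windows, in 3 of 14 core loop genes and in 4 of 15 output genes with a promoter. For every motif, a list gene counted if any of its starts matched, so list and window shares are not in the same unit. Ciart (chr3:95882229-95882478, minus strand) held 3 matches and Per1 (chr11:69098699-69098948, plus strand) held 1, in capitals, overlapping no other motif searched.
Ciart: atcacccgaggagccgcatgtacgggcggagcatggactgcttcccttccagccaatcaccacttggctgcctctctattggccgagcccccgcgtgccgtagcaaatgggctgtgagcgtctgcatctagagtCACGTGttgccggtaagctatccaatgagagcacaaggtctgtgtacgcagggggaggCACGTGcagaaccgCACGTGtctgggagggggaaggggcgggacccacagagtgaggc
Per1: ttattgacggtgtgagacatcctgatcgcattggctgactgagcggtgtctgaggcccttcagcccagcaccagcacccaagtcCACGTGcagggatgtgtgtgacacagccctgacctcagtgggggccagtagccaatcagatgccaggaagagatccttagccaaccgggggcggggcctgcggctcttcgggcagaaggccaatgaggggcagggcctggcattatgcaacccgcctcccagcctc

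**Figure D3:**
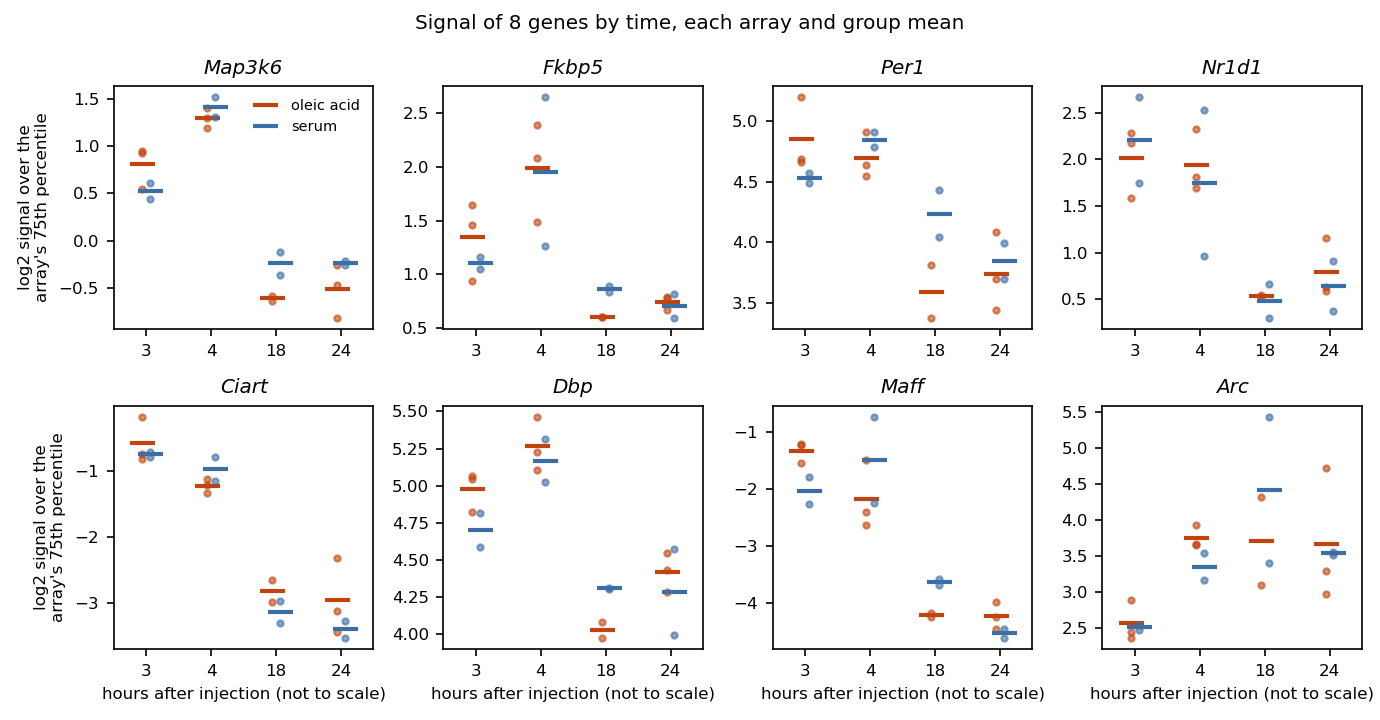
Log2 signal over the array's 75th percentile (vertical axis) at 3, 4, 18 and 24 h after injection (horizontal axis, not to scale) for 8 genes; points are arrays and dashes group means of oleic acid and serum mice. Map3k6, Ciart and Maff are lower at 18 and 24 h in both treatments, and Arc has no such step.

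By single times, oleic acid mice averaged 0.81 ± 0.23, 1.30 ± 0.11, -0.61 ± 0.03 and -0.52 ± 0.29 log2 for Map3k6 at 3, 4, 18 and 24 h (SD, n = 3, 3, 2 and 3). Ciart averaged -0.58 ± 0.35, -1.22 ± 0.10, -2.82 ± 0.24 and -2.96 ± 0.58 at these times. Several falling genes had higher means at 4 h than at 3 h: Angptl4 averaged 1.11 ± 0.39 at 3 h and 2.81 ± 0.22 at 4 h, Hif3a -0.19 ± 0.61 and 0.93 ± 0.36, and Ada -1.50 ± 0.42 and -0.09 ± 0.25. At 3 h 2 of the 3 mice lay on slide 3 and at 4 h all lay on slide 4. This step between the early times was not tested. With the 4 h mice alone as the early group 563 genes were higher and 1633 lower late, and with the 3 h mice alone 207 and 346. With the 18 h mice alone as the late group 36 genes were higher and 177 lower, and with the 24 h mice alone 227 and 636.

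Of 37 immediate early genes 6 fell and 1 rose (median -0.17), against 3.84% and 1.46% of all genes. Maff (probe at chr15:79189442-79189501, plus strand, mm9) was at -4.24, -4.17, -3.98, -4.46 and -4.24 in late mice, against -2.62 to -1.21 (median -1.51) in early mice. The difference of -2.47 ± 0.24 was the largest fall among genes chosen by size (adjusted p = 3.13e-06). Atf3, a stress-induced transcription factor gene, was at -3.49, -3.22, -3.76, -4.05 and -3.28 in late mice, against -2.97 to -1.41 (median -2.05) in early mice, a difference of -1.35 ± 0.22. Csrnp1, a nuclear protein gene induced by AXIN1, fell by 1.16 ± 0.19. Inhba, which encodes an activin subunit, rose by 0.68 ± 0.18, and was named after its value was seen. The classical neuronal activity genes did not pass: Fos differed by -0.21 ± 0.23, Egr1 by 0.03 ± 0.19, Arc by 0.53 ± 0.36 and Npas4 by 0.42 ± 0.19, all with overlapping groups. Of the 37, with the random slide block, 2 passed, both lower, with Maff at an adjusted p of 0.000998. Without the 2 high-Prl late mice the list's median was 0.01.

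The promoter of Maff is shown for a cyclic AMP response element, the site of CREB and ATF factors. The letters TGACGTCA, searched as above, were found in 1.55% of windows and in 3 of 29 genes of the list with a promoter (chr15:79347270-79347519, plus strand; match in capitals).
Maff: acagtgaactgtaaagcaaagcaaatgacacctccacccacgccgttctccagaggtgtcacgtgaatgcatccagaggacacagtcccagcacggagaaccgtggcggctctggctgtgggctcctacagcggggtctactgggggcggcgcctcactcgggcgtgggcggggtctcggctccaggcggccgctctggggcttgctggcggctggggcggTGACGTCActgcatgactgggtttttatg

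Most inflammatory genes did not pass. Of 23 measured members of the inflammatory list 5 fell and 1 rose (median -0.21), against 3.84% and 1.46% of all genes. The monocyte chemokine gene Ccl2 was at -4.11, -4.18, -4.09, -4.48 and -4.25 in late mice, against -4.24 to -1.49 (median -2.71) in early mice, a difference of -1.50 ± 0.36 (adjusted p = 0.0168) with overlap. Ccl19, which guides lymphocytes and dendritic cells, was at -1.12, -1.45, -1.12, -1.42 and -1.17 in late mice, against -1.03 to 0.35 (median -0.31) in early mice, a difference of -0.95 ± 0.12 on its brightest probe and -0.49 and -0.31 on its others. Nfkbia, the inhibitor of NF-kB that glucocorticoids also raise, was at 2.50, 2.94, 2.73, 2.80 and 2.39 in late mice, against 3.43 to 4.03 (median 3.83) in early mice, a difference of -1.07 ± 0.16. Cebpd, an acute phase transcription factor gene, fell by 0.89 ± 0.18. Icosl, a T cell costimulatory ligand gene, fell by 0.41 ± 0.11 and the chemokine gene Cxcl12 rose by 0.74 ± 0.12, both named after their values were seen. Outside the list, the chemokine gene Ccl17 was at -1.31, -1.69, -1.56, -1.55 and -1.85 in late mice, against -0.70 to 1.35 (median 0.03) in early mice, with a difference of -1.70 ± 0.16 (adjusted p = 1.78e-06). The lymphotoxin gene Lta was well above background on 0 of 5 late and 6 of 6 early arrays and was at least 3.26-fold lower late (adjusted p = 0.00035) (a bound, since the late level was set at the dimmest spots that each late array still measured as well above background).

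Other inflammatory readouts did not pass. Il1b differed by -0.03 ± 0.22, with 2 of 5 late and 3 of 6 early arrays above background, Cxcl10 by -0.30 ± 0.31, Lcn2 by 0.07 ± 0.39 and Gfap, the astrocyte filament gene, by -0.02 ± 0.10. In the interferon-stimulated list 1 of 36 passed, Oas1a at 0.51 ± 0.15, and the median was -0.07. Of all genes 5.3% passed in either direction. Under the random slide block 2 members of the inflammatory list were lower and 1 higher, and no interferon-stimulated gene passed (adjusted p = 0.287 for Oas1a). Neutrophil and monocyte genes had a summed linear signal of 194.4 to 236.1 in late mice against 193.3 to 263.3 in early mice.

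A few cold-inducible and metallothionein genes fell, and most of both lists did not pass. Cirbp, an RNA-binding protein gene raised by cooling, was at 3.28, 3.17, 3.19, 3.29 and 3.17 in late mice, against 3.78 to 4.12 (median 4.01) in early mice. The difference was -0.75 ± 0.08 (adjusted p = 1.31e-05), with no overlap. Of 8 genes in this list 3 fell and none rose, against 3.84% and 1.46% of all genes. Hnrnpdl, an RNA-splicing factor gene, fell by 0.41 ± 0.09 on its brightest probe and -0.47 was measured on its other. Rbm3, the second cold-shock gene, fell by 0.42 ± 0.10 on its brightest probe, but the dimmest of its 3 probes differed by 1.14 and the mean of its probes by 0.12. The random slide block left 1 member passing.

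Of 7 metallothionein and zinc genes 3 fell, against 3.84% of all genes. Mt2, a metal-binding protein gene that zinc and glucocorticoids raise, was at 6.05, 6.19, 6.41, 6.07 and 5.70 in late mice, against 6.52 to 7.47 (median 7.01) in early mice, a difference of -0.92 ± 0.13. Mt1 fell by 0.54 ± 0.11, with overlap, and Slc30a1, a zinc exporter gene, by 0.57 ± 0.11, without. With the random slide block Mt2 alone passed, at an adjusted p of 0.0197, against 0.112 for Mt1 and 0.144 for Slc30a1. The Mt2 promoter is shown for its metal response elements, read by the zinc-sensing factor MTF1. The letters TGCNCNC, searched on both strands, were found in 44.4% of windows and in 5 of 7 genes of the list with a promoter. Mt2 held 5 matches (chr8:94172368-94172617, plus strand; capitals).
Mt2: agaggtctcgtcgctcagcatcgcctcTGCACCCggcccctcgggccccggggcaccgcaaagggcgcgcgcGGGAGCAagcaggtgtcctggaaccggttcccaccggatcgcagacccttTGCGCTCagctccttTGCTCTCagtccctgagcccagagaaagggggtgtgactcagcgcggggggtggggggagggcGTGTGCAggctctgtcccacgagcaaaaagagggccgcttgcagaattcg

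Of 23 feeding, insulin and growth signalling genes 6 fell and none rose (median -0.24), against 3.84% and 1.46% of all genes. Foxo3, a factor restrained by insulin, was at -2.41, -2.55, -2.80, -2.53 and -2.70 in late mice, against -1.20 to -0.52 (median -0.92) in early mice. The difference of -1.67 ± 0.16 was on 1 of its 2 probes, and the dimmer one gave -0.26 ± 0.18. Txnip, an inhibitor of thioredoxin, was at -0.17, -0.23, -0.42, -0.37 and -0.14 in late mice, against 0.35 to 1.40 (median 0.93) in early mice, a difference of -1.13 ± 0.19. Arrdc3 fell by 0.68 ± 0.16 and the stress sensor gene Sesn1 by 0.49 ± 0.10. The random slide block left 1 member, Foxo3, passing (adjusted p = 0.000541).

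Chaperone genes moved both ways. Of 25 unfolded protein response genes 3 rose and 1 fell (median 0.07), against 1.46% and 3.84% of all genes. Pdia4, an endoplasmic reticulum disulfide isomerase gene, was at -0.17, -0.75, -0.23, 0.07 and -0.35 in late mice, against -2.43 to -0.81 (median -1.09) in early mice, a difference of 1.01 ± 0.21 (adjusted p = 0.0069). Creld2, a secreted reticulum stress protein gene, rose by 0.46 ± 0.10 and Manf, a reticulum stress and neurotrophic factor gene, by 0.42 ± 0.12, whereas Herpud1, which aids degradation of misfolded proteins, fell by 0.45 ± 0.10. Hspa5, the main chaperone of this compartment, differed by 0.30 ± 0.13 and did not pass. None of the 25 passed with slide as a random block. Of 22 heat shock chaperone genes 2 rose, Chordc1 by 0.58 ± 0.09 and Fkbp4 by 0.39 ± 0.11, and 1 fell, Hspa4 by 0.63 ± 0.12 on its brightest probe. The other Hspa4 probes gave -0.19 and -0.53, and the call was lost with the mean of probes (-0.45, adjusted p = 0.11) and with the random slide block (adjusted p = 0.115). Chordc1, an HSP90 co-chaperone gene, was at 2.02, 2.14, 2.01, 1.97 and 2.18 in late mice, against 1.32 to 1.71 (median 1.44) in early mice, and passed with that block (adjusted p = 0.0197).

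The promoter of Creld2 is shown for an ER stress element, CCAAT and CCACG 9 bases apart, which ATF6 and NF-Y bind. The letters, searched on both strands, were found in 0.113% of windows and in 7 of 22 genes of the list with a promoter (chr15:88819396-88819645, plus strand; match in capitals, on the opposite strand).
Creld2: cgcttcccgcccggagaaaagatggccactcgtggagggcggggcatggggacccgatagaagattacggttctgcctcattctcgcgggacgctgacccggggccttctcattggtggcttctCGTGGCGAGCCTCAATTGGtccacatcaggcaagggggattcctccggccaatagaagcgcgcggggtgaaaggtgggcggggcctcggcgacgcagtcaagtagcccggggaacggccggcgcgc

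At the vessel wall, 4 of 28 endothelium and blood-brain barrier genes fell and 1 rose, with a median of 0 (14 above and 14 below). Of all genes 3.84% were called lower and 1.46% higher. Mfsd2a, the lipid transporter of the barrier, was at 1.99, 2.05, 2.22, 2.14 and 1.75 in late mice, against 2.30 to 3.03 (median 2.77) in early mice, a difference of -0.69 ± 0.12 (adjusted p = 0.00109). The glucose transporter gene Slc2a1 fell by 0.60 ± 0.14, and the efflux pump genes Abcg2 and Abcb1a by 0.38 ± 0.08 and 0.34 ± 0.09. The organic anion transporter gene Slco1a4 rose by 0.32 ± 0.08 and was named after its value was seen. Of this list, Mfsd2a alone passed with the random slide block.

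Among nuclear and glial genes, the linker histone gene H1f2 was at 1.46, 1.49, 1.33, 1.21 and 0.93 in late mice, against 1.99 to 2.17 (median 2.16) in early mice, a difference of -0.81 ± 0.09. The chromatin protein gene Hmgb2 fell by 1.01 ± 0.10, without overlap, and the noncoding RNA gene Snhg1 by 0.49 ± 0.07. Gpr17, a receptor gene of maturing oligodendrocyte precursors, rose by 0.49 ± 0.11, P2ry13, a microglial purine receptor gene, by 0.63 ± 0.15, and Car2, a carbonic anhydrase gene of red cells and glia, by 0.42 ± 0.10. Pdgfra, a precursor receptor gene, fell by 0.29 ± 0.07. Most members of these lists did not pass. Of 31 precursor and cell division genes 1 rose and 2 fell, with 20 below 0. Of 24 microglia genes 1 rose and none fell, with 16 below 0. Of 14 erythroid genes, the list of Car2, 1 rose and none fell, with 11 below 0. Of 18 histone genes 1 fell, and of 13 nuclear noncoding RNA genes 1 fell. Of all genes 1.46% were called higher and 3.84% lower. With the random slide block H1f2, Hmgb2 and Snhg1 passed, and Gpr17, P2ry13, Car2 and Pdgfra did not, at adjusted p of 0.191, 0.289, 0.203 and 0.347. Of the 40 lists 12 had no passing member. None of 19 cerebellum genes passed, all 19 lay above 0 (median 0.64, and 0.37 without the 4 h mouse that lacked Gabra6), and their summed linear signal was 128 to 228.3 in late mice and 73.27 to 233.6 in early mice. The pituitary markers summed to 60.05 to 221.9 in late mice and 62.08 to 85.78 in early mice, and the part of either tissue in the results was not tested. Cytosolic ribosomal protein genes lay below 0 in 39 of 39 with 1 passing (median -0.22), where 3.84% of all genes were called lower. By quantile normalization 26 of the 39 lay below 0 and the median was -0.03.

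Among the 12 largest rises of features with a gene name, Mycn was at -0.80, -0.58, -0.79, -0.29 and -0.33 in late mice, against -1.76 to -1.11 (median -1.58) in early mice, a difference of 0.93 ± 0.14 (adjusted p = 0.00035). Dusp11 was at -2.61, -2.06, -2.42, -2.60 and -2.44 in late mice, against -3.83 to -3.29 (median -3.34) in early mice, a difference of 1.01 ± 0.125 (adjusted p = 4.95e-05). Both passed with slide as a random block. The telomere protein gene Pot1b, the lipoxygenase gene Alox12 and Thap2 passed as higher, but were above background on 5 of 5 late and on 1, 2 and 1 of 6 early arrays, so no size is given for them. The C-type lectin gene Clec2d (0.95 ± 0.20), the zinc finger genes Zfp78 (0.89 ± 0.18) and Zfp449 (0.94 ± 0.22), the oxysterol receptor gene Gpr183 (0.91 ± 0.25), the small GTPase regulator gene Acap1 (0.83 ± 0.21) and the LIM protein gene Crip3 (0.78 ± 0.14) make up the rest with Pdia4. None of these, nor Pdia4, passed with the random block.

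Among the 12 largest falls of features with a gene name, Ada was at -2.63, -2.66, -2.73, -2.93 and -3.32 in late mice, against -1.97 to 0.20 (median -0.72) in early mice, a difference of -2.03 ± 0.25 (adjusted p = 4.8e-05). Runx1, a blood and microglial transcription factor gene, was well above background on 2 of 5 late and 6 of 6 early arrays and passed as lower, with no size given. The claudin gene Cldn20 fell by 1.65 ± 0.18. The integrin gene Itgad (-1.83 ± 0.40) and the protease inhibitor gene Wfikkn1 (-1.72 ± 0.32) passed, but not with slide as a random block.

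**Figure D4:**
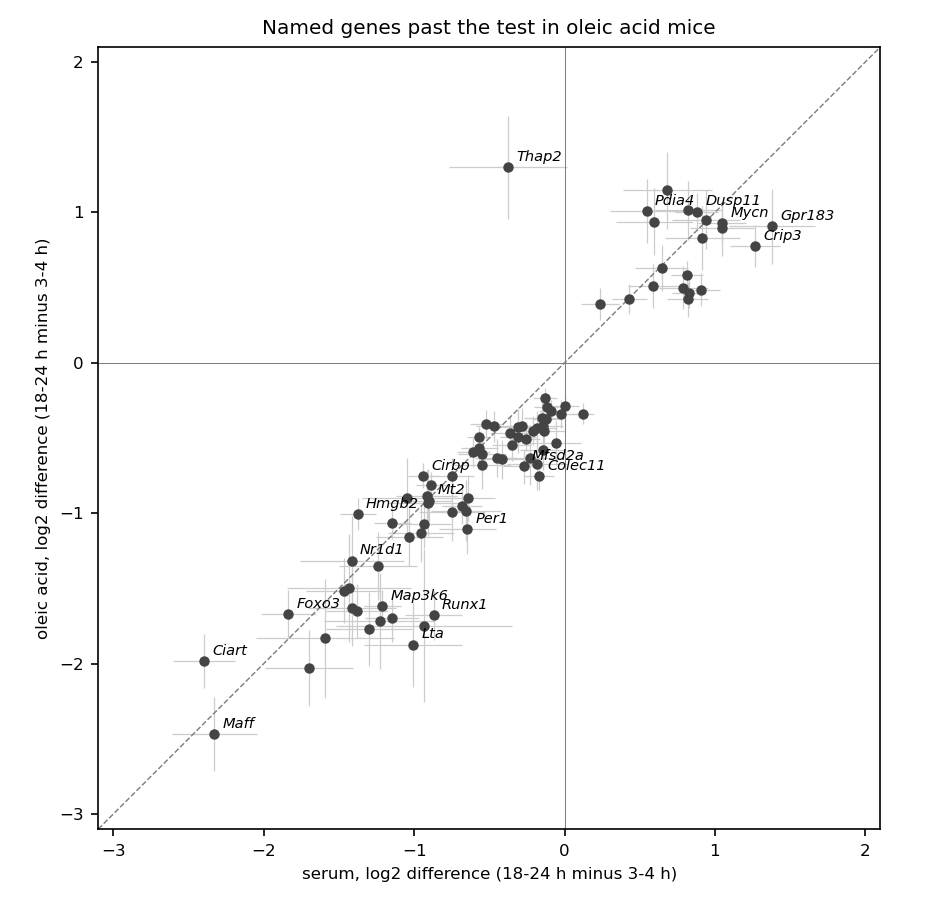
Late minus early log2 difference in oleic acid mice (vertical axis) against that in serum mice (horizontal axis) for 89 named genes past the test in oleic acid mice, each with its SE; the dashed line marks equal differences. Points lie mainly at the upper right and lower left; the Thap2 point rests on early oleic acid signals above background on 1 of 6 arrays.

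The serum mice give the same contrast without oleic acid. There 966 of 25173 genes passed (3.84%), 450 higher (1.79%) and 516 lower (2.05%). There were 396 without 18 h replicate 1, 575 without 24 h replicate 1 and 533 without 3 h replicate 1. Of the 368 genes higher in oleic acid mice 145 were also called higher in serum, 39.4% of the oleic acid and 32.2% of the serum genes. Of the 966 lower genes 308 were shared, 31.9% of the oleic acid and 59.7% of the serum genes, and none was called in opposite directions. The sign was shared by 94.6% of the higher and 95.3% of the lower genes, where 52.2% and 47.8% of all genes had these signs in serum. Beside the oleic acid values above, the serum differences were -1.21 ± 0.12 for Map3k6, -1.41 ± 0.29 for Sgk1, -2.40 ± 0.21 for Ciart, -2.33 ± 0.28 for Maff, -0.94 ± 0.10 for Cirbp, -1.84 ± 0.18 for Foxo3, 1.05 ± 0.16 for Mycn and 0.88 ± 0.14 for Dusp11, all passing. Some other named genes differed less in serum: Mfsd2a by -0.27, Abcg2 by -0.12, Abcb1a by -0.02, Bhlhe40 by -0.06 and Tef by -0.14. Genes called lower in oleic acid mice had a median of -0.51 there and -0.35 in serum. The glucocorticoid list had a median of -0.59 in serum with 9 of 30 lower. Serum medians were 0.01 for immediate early, 0.08 for inflammatory, -0.03 for core clock loop and 0.12 for endothelium and blood-brain barrier genes. The 18 and 4 h serum mice on slide 4 differed in 233 genes (0.926%; 39 and 94 without either 18 h mouse, 145 without 4 h replicate 1), and shared the sign of 91% of the higher and 96.4% of the lower oleic acid genes, where 44.1% and 55.9% of all genes had these signs.

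No gene (0 of 25173, 0%) passed limma for a difference between the treatments in the late minus early change. At an unadjusted p under 0.05 there were 1594, and the smallest adjusted p was 0.752. With slide as a fixed block 25 passed, and without serum 24 h replicate 2 there were 5. The 5 smallest unadjusted p were those of the Wnt antagonist gene Sfrp4 (0.56 between -0.25 ± 0.08 in oleic acid and -0.81 ± 0.09 in serum), the hydrolase gene Cmbl (-0.46), the cell cycle factor gene E2f4 (1.84), the collectin gene Colec11 (-0.58) and a transcript known by an identifier, none passing. The 95% interval of the difference was -0.86 to -0.31 for Colec11, -0.75 to -0.07 for Map3k6, -1.05 to -0.06 for Ccl17 and -0.78 to -0.04 for Mfsd2a, all below 0 but unadjusted, with adjusted p of 0.772 for Map3k6, Ccl17 and Mfsd2a. It was -0.15 to 0.98 for Ciart, -0.91 to 0.64 for Maff, -0.08 to 0.46 for Cirbp and -0.44 to 0.41 for Mt2.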

How the data were processed

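Brain RNA of 31 mice was measured on 1-colour (Cy3) Agilent arrays, 1 per mouse. Per the file headers, the authors' deposited scanner files came from Agilent Feature Extraction 10.5.1.1, with probe coordinates on mm9, and hold processed signal intensity, background-subtracted and detrended, beside raw mean signal. The deposited value table holds log2 values that share 1 distribution, and correlated at 0.9975 to 0.9998 with the log2 mean signal; how the authors made it is not given in the sources used here. The other deposited columns used are flags of 0 or 1, per the file headers.

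Here the log2 of processed signal minus each array's 75th percentile was used. A probe was kept if some group, of 12, had it well above background throughout and if all 31 arrays measured it, and the brightest probe per gene gave 25173 genes. Names came from RefSeq by accession for 15509, by symbol for 1017 and by synonym for 181, and 8466 kept an array identifier. limma 3.58.1 in R 4.3.3 fitted 12 group means to 31 arrays, so all groups share 1 estimate of spread (19 residual degrees of freedom), and the late and early means average their times equally. Benjamini-Hochberg adjustment ran over all genes with a threshold of 0.05. The fit was also run on simulated data with independent noise and no slide effect, so that run says nothing about slide. Nothing beyond the titles says how mice were allotted, so p-values measure the spread between these samples within their groups. Both late oleic acid groups lay wholly on slide 5, so their spread holds no difference between slides. The number of arrays limits precision.

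Genes named are the 12 largest rises and 12 largest falls that passed without overlap and were well above background throughout the higher side, passing over array features known only by an identifier, up to 4 passing members of each list, a fixed panel, and the leading serum and interaction genes; exceptions are stated. The members and lists were chosen with earlier results of these data known. Alternatives covered scaling, background, filters, probe choice, slide, samples and the replicate number, by which the main fit did not pair mice. Same-number correlations of deviations were -0.10 to 0.35 (median 0.03), with 5 of 15 above 0.1. Different-number ones were -0.36 to 0.19 (median -0.02), with 3 of 30 above 0.1. Promoters are from RefSeq, GRCm38.p6.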

Additional observations from a re-analysis of the deposited data

Results flagged for a closer look

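Of 376 groups of 4 to 6 arrays tested over 94 genes, 17 held 1 array far from the rest by Dixon's test, 9 in oleic acid and 8 in serum mice. Chance gives about 1 in 20 for independent groups. These groups pool mice of different times and reuse the same arrays across genes, so the number cannot be set against that rate. Values are log2 signals over the 75th percentile. Among oleic acid mice at 18 to 24 h, these were Angptl4 at -0.23 in 24 h replicate 3 (others 0.51 to 0.75), Nr1d1 at 1.16 in 24 h replicate 3 (others 0.52 to 0.63) and Sesn1 at 2.85 in 18 h replicate 2 (others 2.49 to 2.57). In that group there were also Abcb1a at 0.78 in 18 h replicate 1 (others 0.93 to 0.99). Among oleic acid mice at 3 to 4 h, these were Bhlhe41 at -1.55 in 4 h replicate 1 (others -2.27 to -2.09), Herpud1 at 2.21 in 3 h replicate 1 (others 2.56 to 2.68) and H1f2 at 1.99 in 3 h replicate 1 (others 2.14 to 2.17). In that group there were also Dusp11 at -3.83 in 4 h replicate 3 (others -3.39 to -3.29) and Zfp449 at -5.13 in 4 h replicate 3 (others -4.50 to -4.24). Among serum mice at 18 to 24 h, these were Tef at 4.96 in 24 h replicate 2 (others 5.63 to 5.70), Csrnp1 at 1.34 in 18 h replicate 1 (others 0.43 to 0.50) and Arc at 5.43 in 18 h replicate 1 (others 3.40 to 3.56). In that group there were also Ccl2 at -3.76 in 24 h replicate 2 (others -4.35 to -4.25) and Zfp449 at -3.51 in 24 h replicate 2 (others -4.03 to -3.96). Among serum mice at 3 to 4 h, these were Fkbp5 at 2.65 in 4 h replicate 1 (others 1.05 to 1.26), Fos at -0.37 in 4 h replicate 1 (others -0.10 to -0.05) and Car2 at 3.53 in 4 h replicate 2 (others 3.92 to 3.97). The cause was not tested.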

How the results depend on the processing

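Counts of higher and lower genes late in oleic acid mice (368 and 966) were 139 and 269 with median scaling, 15 and 17 with slide as a fixed block, 22 and 134 with it as a random block, and 1045 and 2079 with array weights, whose tool warned that it had not converged. With only the 11 arrays they were 222 and 471 (4 means) or 152 and 326 (2 groups). They were 36 and 177 with 18 h only, 227 and 636 with 24 h only, 207 and 346 with 3 h only and 563 and 1633 with 4 h only. They were 132 and 366 without the high-Prl arrays and 141 and 385 with a fold of at least 1.5. The higher count was 687 with the deposited value table (993 lower) and 209 without the filter. For serum (966) the counts were 579 with normexp, 325 with median scaling, 633 without the filter, 309 with the fixed block and 557 with the fold. The treatment difference (0) gave 25 with the fixed block, and serum 18 h minus 4 h (233) gave 125 with normexp and 63 with median scaling. Leaving out 1 array gave 100 to 435 higher, 371 to 1196 lower, 396 to 841 in serum, 0 to 5 for the treatment difference and 39 to 186 at 18 h minus 4 h. With the replicate number as a block the counts were 306, 859, 984, 0 and 229, each within 1.5 times. With the fixed block the difference reversed for Abcg2 (0.14), Herpud1 (0.27), Itgad (0.67), Osmr (0.55), P4ha2 (0.17), Pdgfra (0.10), Rbm3 (0.011), Slc2a1 (0.042) and Slc30a1 (0.0050), and with the mean of probes for Rbm3 (0.12). Of 91 named genes that passed, 82 never reversed and 23 kept the call in every alternative but the fixed block. Chosen after seeing the data, dropping the missing-value requirement gave 367 and 967. Serum without slides 2 and 5, also chosen then, left no 24 h mice, so 18 h was compared with 3 to 4 h. That count, 1173, is not of the same contrast as the 966. Other alternatives kept the counts within 1.5 times. Signal near background limits Lta, Runx1, Thap2, Pot1b, Alox12 and E2f4. The causes of these changes were not tested.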
